A study of Bos taurus with 3 samples.

Results

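S-phase replicating epithelial cells of the newborn bovine rumen were the cells described here, and 1912 of 31228 barcodes, or 1912 of 21884 epithelial cells, were members. A barcode was kept when it held 500 to 4000 detected genes, at most 50000 unique molecular identifiers (UMIs, 1 for each captured RNA molecule) and at most 40% of UMIs from the 13 mitochondrial coding genes. A kept barcode was called epithelial when the basal keratins KRT5, KRT14 and KRT15 together reached 10 UMIs per 10000 and no UMI of PTPRC, PECAM1 or COL3A1 (leukocyte, endothelial and fibroblast genes) was present. Members were epithelial cells with UMIs of at least 6 of the 8 replication genes MCM2, MCM3, MCM4, MCM5, PCNA, UHRF1, TK1 and RRM2, with the mitotic genes MKI67, TOP2A, CENPF, UBE2C and TPX2 together under 10 per 10000, and with the spinous layer gene KRTDAP under 10 per 10000. Calves 1, 2 and 3 gave 986, 150 and 776 members. The rule therefore used measured RNA, and the levels of its own genes are given as a description only.

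The study compared the rumen of newborn calves with that of adult Holstein dairy cattle, but adult animals were not analysed here. The data came from the ventral rumen sac of 3 newborn calves, sampled at 1 day after birth. A droplet library (Chromium 3' v3) was made separately for each animal. All 3 calves formed 1 group, and no treatment or genotype was stated for them, so cells were compared within calves. The muscle layers had been stripped and the tissue digested with EDTA, trypsin and then a mixture of collagenases, dispase and hyaluronidase, and the cells studied were those that survived this procedure. The libraries held 7529 to 12043 barcodes and 82263092 to 106145091 UMIs. Between 21 and 37 barcode sequences were shared by a pair of libraries.

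The rumen is lined by a stratified squamous epithelium in which cells divide in the basal layer and are pushed towards the lumen as they differentiate. Before S phase, the origin recognition complex and CDC6 load the MCM helicase onto DNA. In S phase the helicase is activated, polymerases copy the strands behind it, the sliding clamp PCNA holds them on the template, and chromatin assembly factors and the maintenance methylation machinery (UHRF1 with DNMT1) restore the chromatin of the new strands. Many of these genes are transcribed by E2F factors once cyclin-dependent kinases have inactivated the RB protein.

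Replicating cells were a very unequal part of the epithelium of the calves. They were 21.3% of the epithelial cells of calf 1 (95% exact Clopper-Pearson confidence interval 20.1 to 22.5), 1.64% in calf 2 (1.39 to 1.93) and 9.55% in calf 3 (8.92 to 10.2), or 10.8% ± 9.87 (SD, n = 3 calves). The intervals, which cover counting error only, did not overlap. A cell with more UMIs passes the rule more easily, and the median epithelial cell held 10324, 6798 and 8034 UMIs in calves 1, 2 and 3. After each cell was thinned to 5000 UMIs, with shallower cells left out, the same rule took 9.41%, 0.744% and 4.71%, and a rule of 4 of the 8 genes took 22.3%, 2.02% and 10.7%. The order of the calves was the same at all 3 settings. With a single group of calves, no test of the difference between animals was made.

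**Figure D1:**
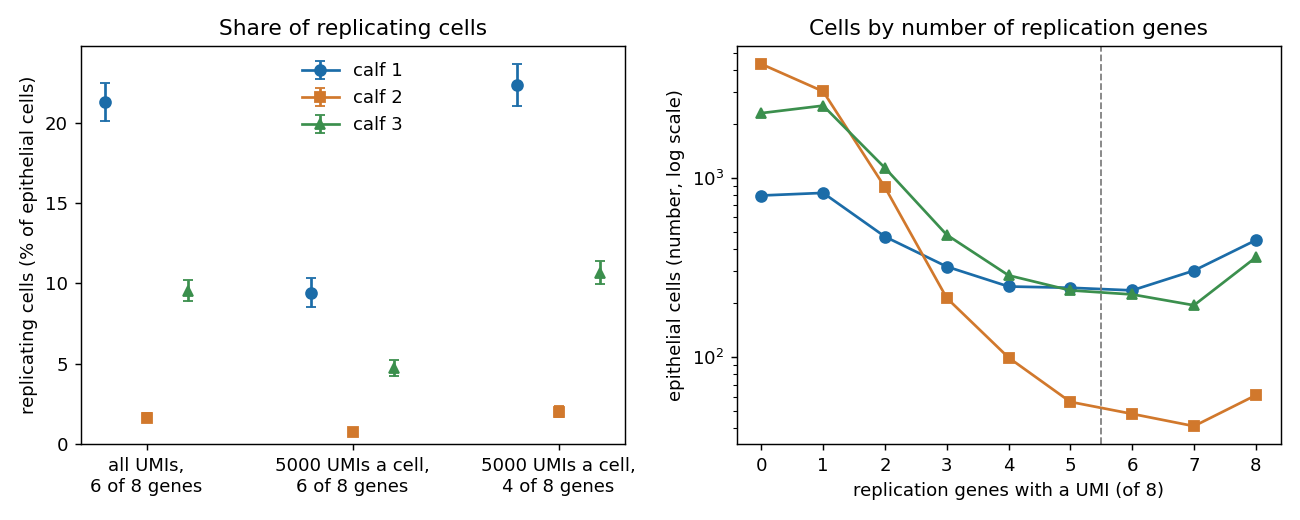
The left panel plots replicating cells as a percentage of epithelial cells for each calf with the 95% Clopper-Pearson interval, for all UMIs and for cells thinned to 5000 UMIs. The right panel plots the number of epithelial cells (log scale) under both other limits of the rule against how many of the 8 replication genes had a UMI, and the dashed line is the limit of 6. The calves keep the order 1, 3, 2 in the left panel, and calf 2 holds 41 to 61 cells at each of 6, 7 and 8 genes on the right.

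Among epithelial cells under the limits on mitotic genes and KRTDAP, cells with 6, 7 and 8 of the replication genes numbered 235, 303 and 448 in calf 1, 48, 41 and 61 in calf 2 and 223, 194 and 359 in calf 3. Just outside the limit, 243, 56 and 235 cells had 5 of the 8. Cells with all 8 genes were the most frequent members in each calf. At 5000 UMIs a cell they were the fewest, with 36, 7 and 62 cells. Their median depth before thinning was 15840, 14944 and 14916 UMIs, against 7838.5, 6236 and 6872 for cells with none of the 8 genes. A further 333, 42 and 152 epithelial cells had at least 6 of the genes but passed the mitotic limit, while 12, 5 and 0 passed the KRTDAP limit. Of the members, 38.2%, 54.0% and 46.4% had no UMI of the 5 mitotic genes, and 85.1%, 75.3% and 99.5% had none of KRTDAP. A score against simulated doublets marked 11.7%, 10.7% and 11.1% of members and 6.04%, 9.16% and 8.39% of epithelial cells, and those cells were kept.

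The 4 marker genes that named the class were present in most members. MCM5, a subunit of the replicative helicase, reached 2.45, 2.25 and 2.48 UMIs per 10000 in the members of calves 1, 2 and 3 against 0.111, 0.104 and 0.0948 in resting cells (epithelial cells with UMIs of at most 2 of the 8 genes). PCNA reached 4.14, 4.71 and 5.55 against 0.362, 0.552 and 0.669. UHRF1, which recognizes hemimethylated DNA, reached 1.73, 1.87 and 2.18 against 0.0252, 0.00466 and 0.00885. RRM2, the regulated subunit of the enzyme that makes deoxynucleotides, reached 1.06, 1.31 and 1.72 against 0.0103, 0.00466 and 0.0101. These levels follow from the rule and carry no test. Resting is a name for the limit of at most 2 genes, and whether such cells had left the cell cycle was not measured. MCM5 had a UMI in 96.5%, 95.3% and 94.6% of members, and RRM2 in 66.1%, 63.3% and 66.9%, the lowest share among the 8 genes.

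Each of the 8 genes was then measured in cells chosen by the other 7, with at least 6 of those 7 required. Resting cells were here drawn anew for each gene, matched on UMIs, with at most 2 of the same 7. The gene left out could thus be present in them. The gene left out was higher in the chosen cells than in resting cells of the same calf for every one of the 8 and in each calf. A gene transcribed together with the other 7 was not independent of that choice, so these ratios are a description and carry no test. PCNA stood 8.31 to 9.83 times higher, MCM2 8.19 to 14.7 times, MCM5 12.4 to 21.8 times and MCM3 15.5 to 22.5 times. RRM2 was 39.9 to 129 times higher and UHRF1 47.8 to 151 times, with resting levels near 0.0170 and 0.0239 UMIs per 10000. TK1, the thymidine salvage kinase, had the widest range for its size, from 6.99 to 39.2 times.

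The members kept the keratins of the basal layer. KRT15 reached 116, 123 and 85.4 UMIs per 10000, against 125, 128 and 103 in resting cells. KRT14 was at 15.5, 53.9 and 23.7 in members and at 7.96, 18.0 and 11 in resting cells, and KRT5 at 59.5, 88.5 and 46.7 against 47.7, 50.0 and 38.7. These 3 genes also belong to the rule. The 10 other epithelial marker genes, among them EPCAM, CDH1 and TP63, each had UMIs in the members of each calf. They summed to 26.7, 28.6 and 18.0 per 10000 in members, under the 31.3, 31.4 and 20.5 of resting cells. In the comparison with resting cells described below, 7 of these 10 genes were called lower in members and none higher. Leukocyte markers summed to 0.106, 0.126 and 0.369 per 10000 in members and 0.115, 0.165 and 0.960 in resting cells, with 5, 6 and 0 of 12 at 0 in members. Endothelial markers summed to 0.0865, 0.0701 and 0.107, with 4, 4 and 2 of 10 at 0. Fibroblast and mural markers summed to 3.38, 1.71 and 1.39 against 4.93, 3.69 and 2.86 in resting cells, most of it DCN, with 4, 5 and 2 of 12 at 0 in members.

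For the first comparison, members were set against these resting cells, which passed the same limits on mitotic genes and KRTDAP and were drawn to match the members' UMIs (985, 450 and 1388 cells). UMIs were summed per calf and class and tested with edgeR with the calf as a block. Levels are CPM, counts scaled to the same total in each sum of cells. Each log2 difference is members minus resting cells, with a standard error (SE). The SE was derived from the test, as the size of the difference divided by the square root of its F statistic. CPM are not divided by gene length, and the 3' library counts RNA molecules. Of 10847 genes tested outside the rule, 4547 were called at an adjusted p of 0.05, or 41.9%, with 2134 higher (19.7%) and 2413 lower (22.2%). Changes of at least 1 log2 unit were called for 568 higher genes (5.24%) and 297 lower genes (2.74%), and the median over all genes tested was -0.07. Without calf 3 the calls were 1378 higher and 1213 lower. Cells were chosen on the 8 genes in the same libraries, so a call for a gene that is transcribed together with those 8 was not independent of the choice. The UMIs of each cell were also split at random, with cells chosen on one part and counted on the other. On the part used for choosing, members needed 4 of the 8 genes and resting cells held at most 1. With this split 3873 genes were called, of which 3551 were among the 4547. Splitting removes only the reuse of the same UMIs, and genes transcribed together with the 8 stay dependent on the choice. The match on UMIs was incomplete in calves 1 and 3, where members had medians of 14561.5 and 13627 UMIs and resting cells 10441 and 11061, and the medians in calf 2 were 13669 and 13663.5. The doublet score marked 3.35%, 32.2% and 16.0% of the matched resting cells, and 4628 genes were called without the marked cells.

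**Figure D2:**
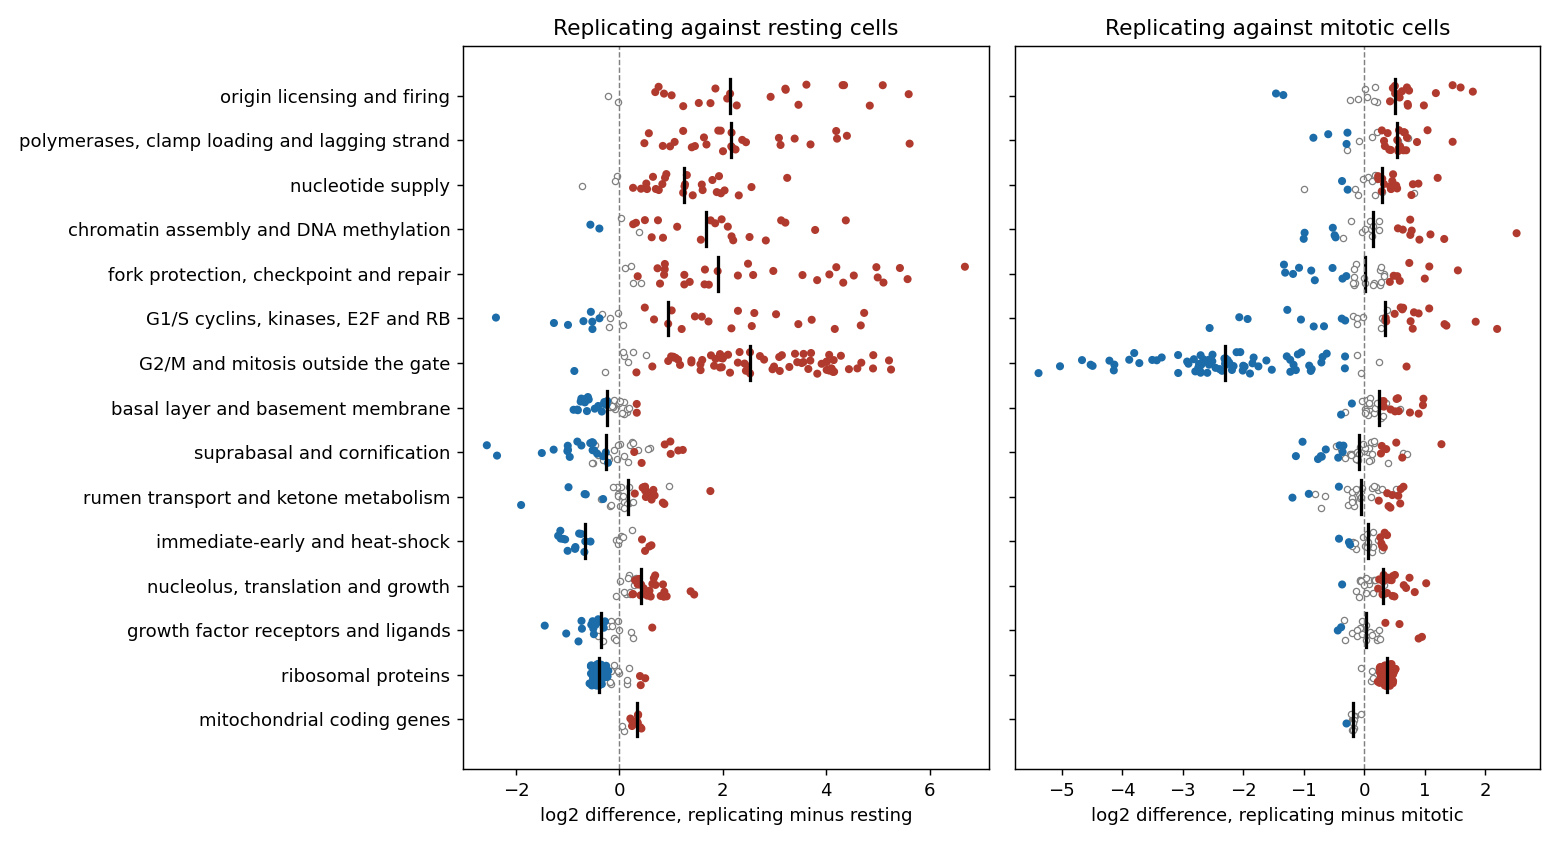
Each point is a gene of a list, placed by its log2 difference between replicating and resting cells (left) or replicating and mitotic cells (right). Filled red points were called higher and filled blue points lower at an adjusted p of 0.05, open points were not called, and the black bar is the list's median. E2F8 against resting cells is not drawn because resting cells held no UMI of it. The medians of the replication lists lie to the right of 0 on the left, with single genes to the left of it, and the median of the mitosis list changes sides between the panels.

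Genes that license and fire replication origins were higher in members as a group. Of 23 tested, 21 were called higher and none lower, with a median difference of 2.14. CDC6, which loads the helicase, was at 29.5, 31.3 and 31.4 CPM in the members of calves 1, 2 and 3 and at 1.22, 0 and 0.488 in resting cells. The members of all 3 calves lay above all resting sums, which held for 26.7% of all genes tested in 1 direction or the other, and the difference was 5.59 log2 units (SE 0.29, adjusted p = 1.67e-08). ORC1, the origin recognition subunit that varies with the cell cycle, stood at 24.9, 26.0 and 39.3 CPM against 1.12, 0.498 and 1.34. MCM6, a helicase subunit outside the rule, was at 67.4, 72.8 and 80.3 CPM against 8.85, 5.98 and 8.36, a difference of 3.21 (SE 0.12, adjusted p = 1.21e-09). The sums of members and resting cells did not overlap for either gene. GMNN, the geminin that blocks a new round of licensing, was at 107, 179.9 and 168 CPM against 9.46, 8.96 and 16.7, also without overlap. Helicase activation genes behaved alike, with log2 differences of 4.34 for MCM10, 3.46 for CDC45 and 2.92 for GINS2.

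All 27 tested genes for polymerases, clamp loading and lagging strand synthesis were called higher, with a median difference of 2.16. PCLAF, a small protein that binds PCNA, had the largest difference of the list. It was at 139, 129 and 133 CPM in members and at 5.90, 0.664 and 1.59 in resting cells (log2 difference 5.61, SE 0.27, adjusted p = 9.28e-09). POLD1, the catalytic subunit of the lagging strand polymerase, was at 89.3, 68.5 and 77.1 CPM against 8.24, 6.64 and 7.5. The polymerase alpha subunit POLA1, which starts each strand, differed less, by 1.64 (SE 0.12). FEN1 and LIG1, which trim and join the lagging strand fragments, differed by 3.70 and 2.18, and RPA2, a subunit of the single-strand binding complex, by 2.25. Members and resting cells did not overlap for any of these 6 genes.

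Genes of nucleotide supply were higher for 25 of 28 tested, with none called lower and a median of 1.25. DUT, the enzyme that removes dUTP and provides the precursor of dTMP, was among the most abundant, at 785, 596 and 562 CPM in members and 164, 188 and 146 in resting cells. TYMS, thymidylate synthase, was at 133, 96.9 and 112 CPM against 30.6, 18.8 and 32.7. The log2 differences of DUT and TYMS were 1.96 and 2.03, and members and resting cells did not overlap. RRM1, the large ribonucleotide reductase subunit, differed by 2.55 (SE 0.09) and the dTMP kinase DTYMK by 3.24 (SE 0.12). SAMHD1, which breaks deoxynucleotides down, had few counts, at 2.02, 1.45 and 1.79 CPM against 2.44, 3.49 and 3.54. It was lower in the members of each calf and missed the threshold (log2 difference -0.72, adjusted p = 0.0591), but passed it in 5 of the alternatives, among them without calf 1 (adjusted p = 0.0277).

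Chromatin genes followed for 20 of 24 tested, while 2 were lower. ASF1B and CHAF1A, chaperones that place histones on new DNA, differed by 4.38 and 3.78. DNMT1, the maintenance methyltransferase, was at 149.9, 149 and 184 CPM in members and 34.2, 28.1 and 42.0 in resting cells (log2 difference 2.20, SE 0.09, adjusted p = 3.05e-09). The de novo methyltransferase DNMT3A went the other way by a small amount, at 39.1, 40.5 and 31.0 against 53.4, 47.5 and 41.2 CPM (-0.39, SE 0.09, adjusted p = 0.00468, and 0.0530 without calf 3). The histone variant H2AFZ stood at 940.0, 777 and 790.4 CPM against 327, 228 and 197, and H3F3B, the replacement histone H3 that is made throughout the cycle, was lower by 0.56 log2 units in members. SLBP, which binds the stem-loop of replication-dependent histone messages, was at 114, 137 and 96.1 CPM against 32.1, 27.6 and 26.1. HIST1H2AC, a histone H2A gene, had the largest difference among the lower genes named by size, at 29.6, 6.75 and 9.04 CPM in members and 129, 24.1 and 62.2 in resting cells (log2 difference -2.34). Replication-dependent histone messages mostly lack a poly(A) tail, on which this library type relies, so such a level covers polyadenylated copies.

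Of 33 genes for fork protection, checkpoints and repair, 29 were higher and none lower, with a median of 1.90. CLSPN, the claspin that links stalled forks to the checkpoint kinase, was at 41.7, 40.02 and 46.8 CPM in members and at 1.22, 1.33 and 1.52 in resting cells (log2 difference 4.97, SE 0.15, adjusted p = 3.44e-10). CHEK1, that kinase, differed by 2.49. BRCA2, of homologous recombination, was at 107, 85.3 and 127 CPM against 11.8, 10.8 and 18.0. ESCO2, which acetylates cohesin during replication, was at 39.4, 27.0 and 34.9 CPM against 1.73, 0.498 and 0.732. None of these genes overlapped between the classes.

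**Figure D3:**
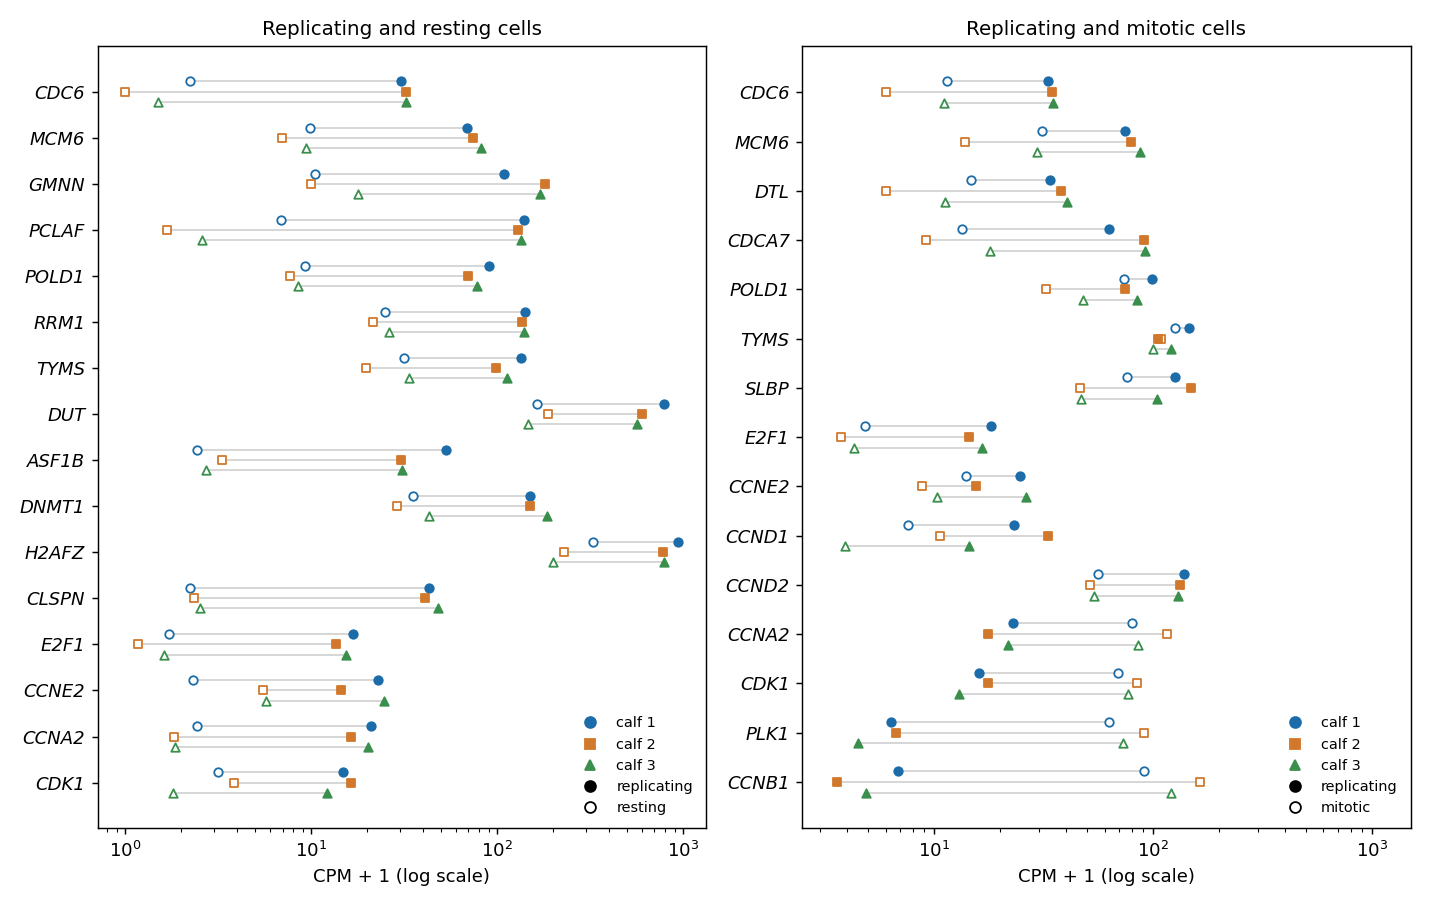
Each row is a gene, and points give CPM + 1 (log scale) for each calf, filled for replicating cells and open for resting cells (left) or mitotic cells (right), joined within a calf. On the left each gene drawn is higher in replicating cells of all 3 calves. On the right CDC6, MCM6 and DTL remain higher, while CCNA2, CDK1, PLK1 and CCNB1 lie on the other side.

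Regulators of the entry into S phase split in direction, with 19 of 32 higher, 8 lower and a median of 0.98. E2F1 was at 15.7, 12.5 and 14.4 CPM in members and at 0.712, 0.166 and 0.610 in resting cells (log2 difference 4.67, SE 0.25, adjusted p = 2.26e-08). E2F8, a repressor of the same targets that is induced by them, had 77, 14 and 136 UMIs in members and none in the resting cells of any calf. Against 3 counts per resting library it was at least 19.0, 14 and 68.4 times higher in calves 1, 2 and 3. The cyclins of S phase were higher as well. CCNE2, a partner of CDK2 at the start of replication, was at 21.8, 13.5 and 23.5 CPM against 1.32, 4.48 and 4.70, and CCNA2, its partner later in S phase, at 20.0, 15.4 and 19.2 against 1.42, 0.830 and 0.854. CDK2 and CDK4 differed by 1.72 and 1.01.

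The CIP/KIP inhibitors of cyclin-dependent kinases were lower in members, while the CDK4 inhibitor CDKN2C was higher by 1.2 log2 units. CDKN1A (p21) was at 123, 89.7 and 108 CPM against 168, 239 and 251 in resting cells, a difference of -0.99 (SE 0.15, adjusted p = 1.74e-04). CDKN1C (p57) was at 13.3, 16.4 and 10.4 CPM against 24.6, 53.1 and 28.2, and CDKN1B (p27) differed by -0.55. Both classes stayed apart for CDKN1A and CDKN1C. Of the D cyclins, which act before S phase, CCND2 and CCND3 were each lower by 0.52 log2 units, and CCND1 gave -0.20 without passing the threshold (adjusted p = 0.189). MYC was at 139, 72.3 and 182 CPM against 174, 149.9 and 319, lower in each calf (-0.69, SE 0.12, adjusted p = 5.52e-04), although calf 3's members lay above the resting cells of both other calves.

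Genes of G2 and mitosis that the rule did not use were also higher in members than in resting cells, with 68 of 75 called, 1 lower and a median of 2.53. Their levels were uneven. SMC2, a condensin subunit, was at 223, 179 and 236 CPM against 10.3, 10.3 and 15.4, and the tubulin TUBA1B at 828, 769 and 902 against 181, 235 and 237. BIRC5, of the chromosomal passenger complex, was at 38.4, 28.0 and 25.4 against 5.29, 1.99 and 2.75. CCNB1, the mitotic cyclin, stayed low in both classes, at 5.33, 2.41 and 3.58 CPM against 1.42, 0.664 and 0.610 (log2 difference 2.14, SE 0.30, adjusted p = 1.29e-04). PLK1 was at 4.92, 5.30 and 3.24 CPM against 2.54, 2.66 and 3.35, and its difference of 0.52 did not pass (adjusted p = 0.131), but passed without calf 3 (0.96, adjusted p = 0.0388).

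Immediate-early genes were lower in members. Of 24 immediate-early and heat-shock genes, 14 were called lower and 4 higher, with a median of -0.67. The 14 lower ones were all immediate-early genes, which are induced within minutes by growth factors or stress, including dissociation. JUN was at 1442, 1015 and 1724 CPM in members and 2105, 2899.6 and 3682 in resting cells (-1.05, SE 0.13, adjusted p = 6.08e-05). FOS was at 480.2, 156 and 391 CPM against 769.8, 575 and 837, and JUNB at 560.2, 365 and 465 against 832, 1080.2 and 1154. No member sum reached a resting sum for these 3 genes. KLF6 had the smallest p of the lower genes of the list, with a difference of -1.09. The 4 higher genes were the chaperones HSPA8 (0.62), HSPE1, HSP90AA1 and HSPD1, which are made without stress as well.

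Receptors and ligands of growth factor signaling were lower for 14 of 26, higher for 1 and had a median of -0.36. CCN2, a matrix protein and target of YAP, was at 3.57, 10.1 and 87.2 CPM in members against 8.03, 23.1 and 259, so calves differed more than classes, yet the direction was the same in each (-1.44, SE 0.12, adjusted p = 1.40e-06). FGFR2, the receptor of keratinocyte growth factor, was at 96.4, 53.0 and 145 CPM against 147, 116 and 245. HBEGF, an EGF receptor ligand, differed by -0.40 (adjusted p = 0.0231, and 0.467 without calf 3). FGFBP1, a carrier of FGF ligands, was the gene called higher, at 96.6, 138 and 201 CPM against 62.2, 95.3 and 122 (0.64, SE 0.08).

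**Figure D4:**
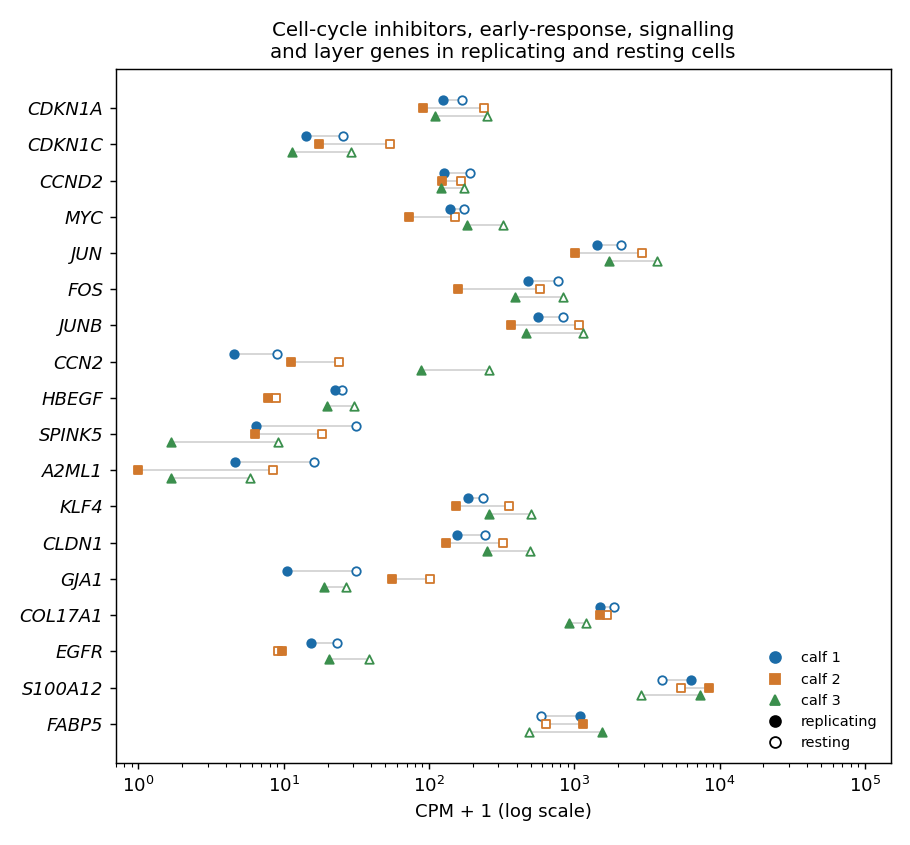
Points give CPM + 1 (log scale) for each calf, filled for replicating and open for resting cells, joined within a calf. CDKN1A, JUN, FOS and JUNB lie lower in replicating cells of all 3 calves, COL17A1 shifts little, EGFR crosses in calf 2, and S100A12 and FABP5 lie higher.

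Genes of the basal layer and the basement membrane were more often lower than higher in members, by small amounts. Of 34 tested, 18 were lower and 2 higher, with a median of -0.24. The summed level of the list did not fall in this way. It was 93.8, 101 and 76.0 UMIs per 10000 in cells of calves 1, 2 and 3 with none of the 8 replication genes. In cells with all 8 it was 93.5, 139 and 95.5, without a match on UMIs. Over all genes tested, 22.2% were lower and 19.7% higher. No gene of the list was called with a change of 1 log2 unit or more. COL17A1, the hemidesmosome collagen, was at 1509, 1489 and 924 CPM in members and 1872, 1689 and 1201 in resting cells (-0.29, SE 0.08, adjusted p = 0.00813, and 0.0575 and 0.0564 without calf 2 or calf 3). TP63, the transcription factor of stratified epithelia, differed by -0.30 (adjusted p = 0.0205, and 0.227 and 0.0657 without calf 1 or calf 2). LAMA3, a laminin chain, was at 42.1, 21.2 and 72.8 CPM against 68.0, 42.3 and 132, CD44 differed by -0.72, and the Notch ligand JAG1 by -0.75. EGFR was called lower (-0.73, adjusted p = 0.00124, and 0.0970 without calf 3) at 14.3, 8.68 and 19.3 CPM against 22.2, 8.13 and 37.8, so the members of calf 2 lay above its resting cells.

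Suprabasal and cornification genes were mixed, with 19 of 45 lower, 7 higher and a median of -0.26. The summed level of the list went the other way from this median. It was 101, 94.8 and 71.6 UMIs per 10000 in cells of calves 1, 2 and 3 with none of the 8 replication genes. In cells with all 8 it was 160, 166 and 161, without a match on UMIs. KRTDAP, which the rule limits, is a spinous gene, so a part of this list was constrained by the choice of cells in both classes. SPINK5, a protease inhibitor of the upper layers, was at 5.40, 5.30 and 0.682 CPM in members against 30.3, 17.3 and 8.11 (-2.56, SE 0.21, adjusted p = 1.57e-06). A2ML1, another protease inhibitor, was at 3.64, 0 and 0.682 against 15.1, 7.47 and 4.82. Involucrin (IVL) and the cross-linking enzyme TGM1 differed by -0.997 and -1.27, and all 4 genes had few counts. Against all resting cells, without the match on UMIs, IVL and TGM1 gave -0.54 and -0.56 and were not called (adjusted p = 0.0682 and 0.0956). Some genes of the list with more counts were lower too. KLF4, a factor of barrier differentiation, was at 186, 153 and 259.6 CPM against 233, 352 and 504, and the tight junction gene CLDN1 at 154, 129 and 251 against 242, 321 and 492.

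S100A12 and FABP5 were higher. S100A12, a calcium-binding protein of the S100 family, was one of the most abundant genes named here, at 6319.9, 8511 and 7325 CPM in members and 4042, 5430.3 and 2890.3 in resting cells (0.88, SE 0.11, adjusted p = 6.59e-05). FABP5, the epidermal fatty acid carrier, was at 1099.9, 1141 and 1554 CPM against 587, 639.8 and 488 (1.14, SE 0.13, adjusted p = 2.96e-05), and the classes did not overlap for either gene. The differentiation genes OVOL1 and CALML5 were higher by 0.99 log2 units each.

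Genes for rumen transport and ketone metabolism, which the mature rumen uses to absorb and convert short-chain fatty acids, were higher for 14 of 36, lower for 5 and at a median of 0.17. BDH1, which converts acetoacetate to hydroxybutyrate, was at 21.2, 38.6 and 33.4 CPM in members against 6.71, 13.3 and 8.60 (1.76, SE 0.13, adjusted p = 3.41e-07). The monocarboxylate transporter SLC16A1 was at 320.4, 210.2 and 503 CPM against 302, 131 and 327, a smaller difference of 0.45 with overlap between calves (adjusted p = 0.00640, and 0.0876 without calf 3). Genes of the nucleolus and of growth were higher for 25 of 36, with none lower and a median of 0.41. RANBP1, a cofactor of nuclear transport, was at 286, 246 and 325 CPM against 120.3, 83.2 and 112, and SRM, spermidine synthase, at 42.0, 46.3 and 55.0 against 14.2, 17.3 and 23.6. NPM1, the abundant nucleolar chaperone, gave -0.07 (adjusted p = 0.536).

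Ribosomal protein genes went the other way from those of the nucleolus. Of 80 tested, 67 were lower in members and 3 higher, with a median of -0.40. They made up 3495, 3178 and 2960.2 of 10000 UMIs in members and 4119.5, 3962 and 3801 in resting cells, and the classes did not overlap. Many of these genes have processed copies in the genome, so the share of single members is uncertain. The 13 mitochondrial coding genes were higher for 11 and lower for none, with a median of 0.34. Mitochondrial UMIs had medians of 5.78%, 9.09% and 7.66% per member cell and of 4.63%, 5.92% and 5.73% per matched resting cell. The part of these shares in the differences of other genes was not tested.

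The genes with the largest differences among those at 20 CPM or more in 1 class were mostly replication genes. DTL, part of the ubiquitin ligase that removes CDT1 in S phase, had 445, 71 and 428 UMIs in members and 8, 0 and 6 in resting cells (log2 difference 6.24, SE 0.28). PCLAF, CDC6, ESCO2 and the helicase RECQL4 followed, and KNTC1, a kinetochore gene, was at 26.6, 18.8 and 23.4 CPM against 1.32, 0 and 0.610. On the lower side stood HIST1H2AC, then PARM1, CCDC190, PHGR1, ISG15 and CCN2. ISG15, an interferon-induced protein, was at 1.08, 13.5 and 55.2 CPM in members against 3.36, 28.7 and 175 in resting cells, with more difference among calves than between classes. PARM1 stood at 13.5, 3.38 and 1.96 CPM against 36.2, 21.2 and 8.91. Of the markers of other cell types with enough counts to be tested, 2 of 3 leukocyte genes, 1 of 3 endothelial genes and 2 of 6 fibroblast and mural genes were called lower in the same comparison, and PAM of the last list was called higher (0.86). Among the lower ones, BOLA-DRA was at 9, 2 and 97 UMIs against 14, 16 and 594, with a log2 difference of -2.004 (not called without calf 3, adjusted p = 0.0968), and DCN at 297, 143 and 92.9 CPM against 504, 365 and 233. The part of such RNA in the lower genes was not tested.

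Along the number of replication genes detected, genes outside the rule changed at different points. That number also follows the depth of the cells. MCM6 rose from the middle of the range: it was at 0.0641, 0.0480 and 0.0555 UMIs per 10000 in cells with none of the 8 genes, at 0.365, 0.325 and 0.393 with 4 and at 0.797, 0.866 and 1.06 with 8. GMNN behaved alike, at 0.390, 0.359 and 0.593 with 4 genes and 1.29, 2.15 and 2.27 with 8. PCLAF stayed low for longer, at 0.136, 0.0855 and 0.0766 with 4 genes and 0.392, 0.0806 and 0.277 with 6, and then stood at 2.12, 2.07 and 2.40 with 8. CCNA2 had the same shape, at 0.0659, 0 and 0.0346 with 6 genes and 0.289, 0.246 and 0.328 with 8, as did CDK1, at 0.0462, 0.0322 and 0.0423 with 6 and 0.212, 0.235 and 0.188 with 8. JUN declined over the same range, from 21.3, 31.1 and 40.8 with none to 13.7, 9.30 and 16.7 with 8, and least in calf 1. CDKN1A fell from 1.76, 2.27 and 2.66 to 1.24, 0.920 and 1.06. COL17A1 was lower at the end of the range in each calf too, at 18.7, 15.5 and 13.7 with none and 14.3, 13.6 and 9.67 with 8. These values describe the variable that the rule divides and carry no test.

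**Figure D5:**
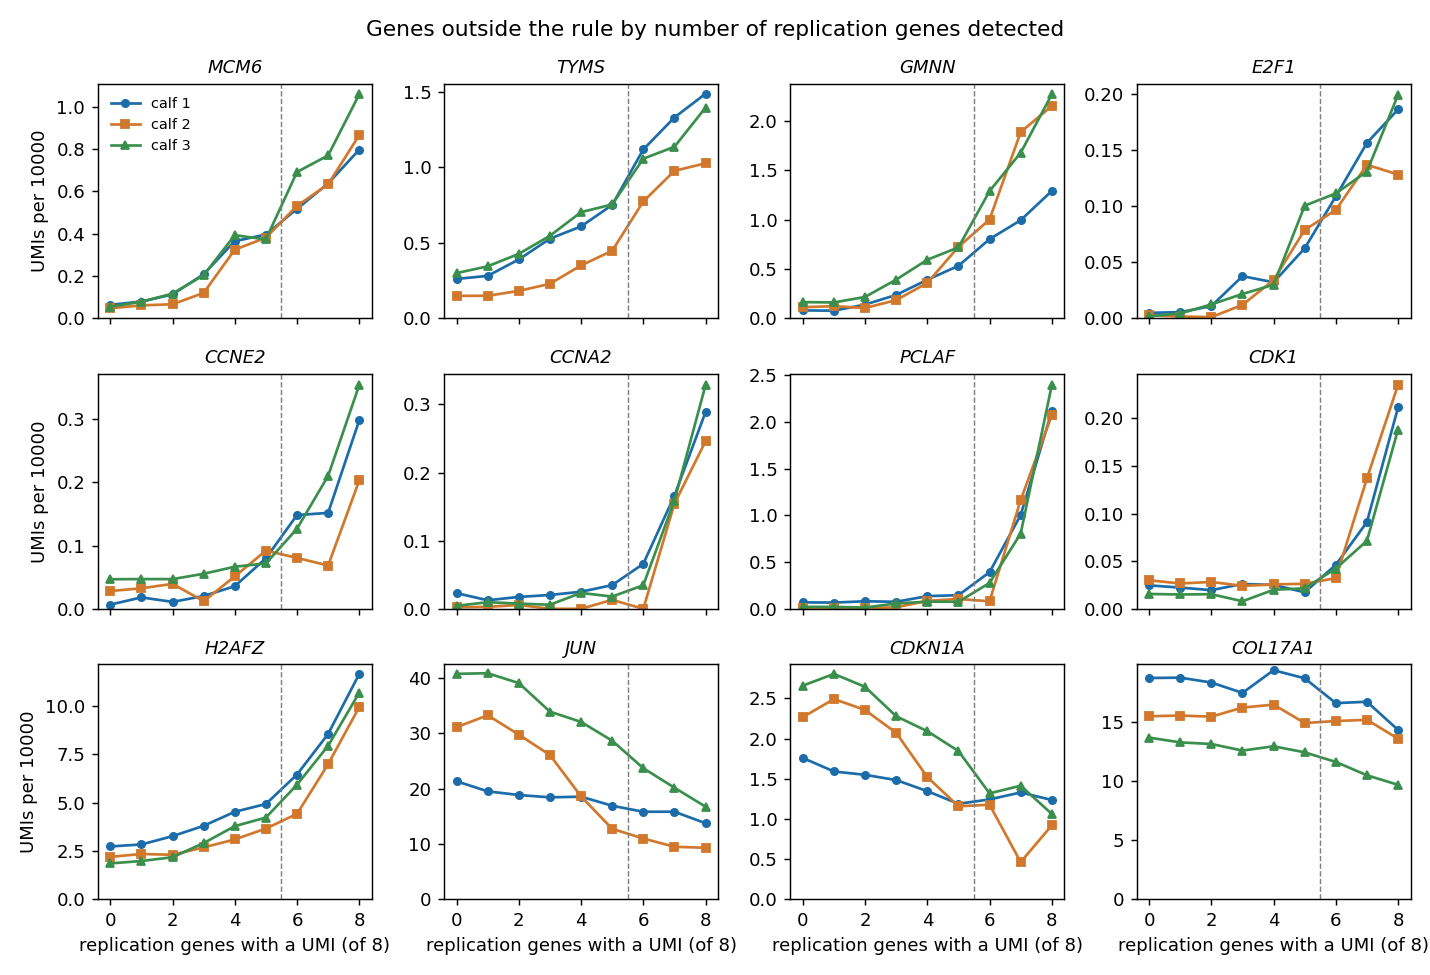
Each panel plots UMIs per 10000 of a gene outside the rule against the number of the 8 replication genes with a UMI, for epithelial cells under both other limits of the rule, with a line per calf. The dashed line is the limit of 6. MCM6, TYMS and GMNN climb from 3 or 4 genes on, PCLAF, CCNA2 and CDK1 climb past 6, and JUN and CDKN1A decline.

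For the second comparison, members were set against mitotic epithelial cells, with the 5 mitotic genes at 10 per 10000 or more and KRTDAP under 10 (683, 203 and 382 cells). Of 10298 genes tested, 2926 were called, or 28.4%, with 1611 higher in members (15.6%) and 1315 lower (12.8%). Differences of at least 1 log2 unit were called for 221 higher genes (2.15%) and 272 lower genes (2.64%), and the median over all genes was 0.01. Both comparisons use the same member cells. With cells chosen on one random part of their UMIs and counted on the other, 1971 genes were called, of which 1885 were among the 2926, or 64.4% of them. Without calf 1 the calls were 796 higher and 689 lower. Mitotic cells could hold any number of the replication genes, and with those of 6 or more left out, a setting chosen after seeing the data, 2973 genes were called, of which 2253 were among the 2926. Members had median depths of 14561.5, 13669 and 13627 UMIs and mitotic cells of 13637, 10363 and 12946.5.

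These classes were divided by the 5 mitotic genes, and members alone also had to pass the limit on the replication genes of the rule. A call for a gene transcribed together with the mitotic genes or with those replication genes was therefore not independent of the division. Mitosis genes outside the rule were lower in members for 72 of 76 tested and higher for 1, with a median of -2.31. CCNB1 was at 5.81, 2.59 and 3.86 CPM in members and 89.6, 163 and 119.5 in mitotic cells (-4.52, SE 0.16, adjusted p = 1.16e-18). AURKA and PLK1, kinases of the spindle, were at 4.56, 3.11 and 3.95 CPM against 64.5, 78.6 and 84.5 and at 5.37, 5.70 and 3.49 against 62.1, 89.5 and 71.6. CDK1 was at 15.0, 16.6 and 11.9 CPM against 68.5, 83.6 and 75.6, and CCNA2 at 21.9, 16.6 and 20.7 against 79.1, 114 and 84.7. Both therefore stood above resting cells and under mitotic cells in each calf. Among genes at a mean of 20 CPM or more in mitotic cells, the largest differences in this direction were those of PIMREG, ASPM, CDKN3, TNFAIP8L1, CDC20 and CCNB1. PIMREG, a mitotic regulator, had 3, 0 and 0 UMIs in members and 313, 171 and 118 in mitotic cells, and ASPM, a spindle pole protein, was at 4.49, 2.07 and 2.94 CPM against 141, 191 and 155.

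Genes of the start of replication were higher in members than in mitotic cells. Members were chosen on replication genes and mitotic cells were not, so these calls were not independent of that choice. The same holds for the polymerase, nucleotide and S phase entry genes that follow, where they are transcribed together with the genes of the rule. Of 24 licensing and firing genes, 15 were higher and 2 lower, with a median of 0.51. CDC6 was at 32.2, 33.7 and 33.8 CPM in members and 10.5, 5.02 and 10.1 in mitotic cells (1.79, SE 0.15, adjusted p = 1.47e-10), MCM6 differed by 1.59 and ORC1 by 1.46. GMNN, whose protein is degraded in mitosis, differed by 0.98. All of these had the same direction in 3 of 3 calves, as did 54.5% of all genes tested. DBF4, the activator of the origin-firing kinase CDC7, was lower in members, at 15.2, 21.2 and 23.7 CPM against 50.2, 64.4 and 51.8. Polymerase and clamp genes were higher for 19 of 29 and lower for 4, among the former POLD1 (0.70) and POLD2 (1.46). PCLAF was lower, at 152, 138 and 143 CPM against 277, 218 and 274 (-0.84, SE 0.08, adjusted p = 4.59e-09), but gave -0.02 (adjusted p = 0.873) with mitotic cells of 6 or more replication genes left out.

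Nucleotide supply and chromatin genes differed less between the 2 proliferating classes. Nucleotide genes were higher for 16 of 29 and lower for 2, with a median of 0.29. TYMS, at 145, 104 and 120.2 CPM in members against 125, 107 and 98.8, did not pass (0.18, adjusted p = 0.112). Of 24 chromatin genes, 9 were higher and 5 lower. SLBP was higher by 1.09 and DNMT1 by 0.78, whereas ASF1B (-0.99), H2AFZ (-0.49) and EZH2 (-0.47) were lower. EZH2 gave 0.20 (adjusted p = 0.155) with mitotic cells of 6 or more replication genes left out and was not called without calf 1 (adjusted p = 0.104). Fork and repair genes were split, with 8 of 33 higher, 9 lower and a median of 0.01: the mismatch repair gene MSH6 was at 73.9, 81.8 and 101 CPM against 34.9, 19.6 and 26.7, and the cohesin subunit RAD21 at 78.9, 103 and 104 against 192, 275 and 249.

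Of the regulators of S phase entry, 15 of 32 were higher in members and 9 lower. CCND1 was at 22.1, 32.1 and 13.5 CPM against 6.63, 9.59 and 2.90 (1.84, SE 0.17, adjusted p = 1.94e-09), and CCND2 at 138, 132 and 129 against 55.1, 50.7 and 52.8 (1.32, SE 0.09). E2F1 was at 17.1, 13.5 and 15.5 CPM against 3.85, 2.74 and 3.29, and CCNE2 at 23.8, 14.5 and 25.3 against 13.0, 7.77 and 9.28. CDKN1A was slightly higher in members (0.36, SE 0.09, adjusted p = 0.00288, and 0.162 without calf 3). CDKN1B and CDKN2C were lower, by 0.84 and 1.93 log2 units. Among genes at a mean of 20 CPM or more in members, the largest higher differences belonged to CDCA7, ACACB, CCND1, CDC6, DTL and PSMC3IP. CDCA7, which works with the remodeler HELLS, was at 61.6, 89.6 and 90.8 CPM against 12.4, 8.22 and 17.0. ACACB, an acetyl-CoA carboxylase of lipid metabolism, was at 164, 127 and 156 against 30.6, 21.5 and 26.7 (2.49, SE 0.10, adjusted p = 1.05e-17). Members and mitotic cells did not overlap for these cyclins, E2F1, CDCA7 or ACACB, as for 17.8% of all genes tested.

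Ribosomal protein genes were higher in members for 76 of 80 and lower for none, with a median of 0.38, so members lay between mitotic cells, at 2754, 2816 and 2352 of 10000 UMIs, and resting cells. Mitochondrial coding genes were lower for 1 of 13 and higher for none. Of 34 basal genes, 12 were higher and 2 lower, and of 42 suprabasal genes 6 were higher and 10 lower. LY6D, a surface protein of squamous cells, was at 1166, 462 and 142 CPM in members against 490.4, 155 and 70.2 in mitotic cells (1.27, SE 0.09). Of 35 transport and ketone genes, 9 were higher and 3 lower. The mitochondrial thiolase ACAT1 was at 58.2, 54.9 and 62.3 CPM against 131, 177 and 118 (-1.19, SE 0.10, adjusted p = 3.44e-10). Immediate-early and heat-shock genes were called for 9 of 24, 6 higher and 3 lower, and growth factor genes for 6 of 24. Over all genes tested, 28.4% were called, 15.6% higher and 12.8% lower. Calls in the growth factor list were thus no more frequent than over all genes.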

How the data were processed

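Rumen cells of 3 newborn calves were analysed, with 1 library each. Per the labels and the methods of the study, the authors aligned the reads to the ARS-UCD1.2 cattle genome and counted them with Cell Ranger 3.1.0. The deposited values are UMI counts per gene and barcode, before the authors' filters, and gene symbols are those of the files. The limits of 500 to 4000 genes, 50000 UMIs and 40% mitochondrial UMIs were those of the authors. DoubletFinder, which the authors used, was not run here. Instead each barcode was scored by the share of simulated doublets among its neighbours, and 0.8% of barcodes were marked for every 1000 barcodes held, as an alternative only. Members, gene lists and tests were chosen with earlier results of these data known.

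Resting cells were drawn in bins of 0.25 log2 UMIs, up to 3 per member (seed 1). Counts were summed per calf and class and fitted with edgeR 4.0.16 in R 4.3.3 (TMM, filterByExpr, glmQLFit and glmQLFTest, calf as block, Benjamini-Hochberg adjustment over all genes tested, threshold 0.05). Both sums of a calf come from the same animal, and their deviations from the class means correlated at 0.57 to 0.82. With cells as the source of both sums, p-values rest on 3 animals. CPM are scaled by TMM within a comparison, so those of members differ slightly between the comparisons. Genes of the rule received no p. Some genes that the naming rule takes are not reported here. Precision was limited by the UMIs of a class: members had median depths of 13627 to 14561.5 UMIs. Confidence intervals of shares (95%, Clopper-Pearson) and the floor of 3 counts cover counting error only.

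Genes were named when they belonged to the rule, when they were among the 4 smallest p in a direction within a list or had a role set out in the text, or when they were among the 6 largest called differences in a direction at 20 CPM or more in 1 class with the same direction in 3 of 3 calves. Alternatives were another normalization (RLE), DESeq2 1.42.0, no filter, no block, leaving out a calf, 5 or 7 of 8 genes, removal of marked doublets, 20% mitochondrial UMIs, count splitting, other resting or mitotic sets, thinning, and other limits on keratins and mitotic genes. The fits were also run on simulated counts with set differences. No cells were chosen in that simulation, so it cannot speak to the dependence of calls on the choice of cells.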

Additional observations from a re-analysis of the deposited data

Results flagged for a closer look

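Barcodes above the limit of 4000 genes, which are outside the cells compared, passed the other limits of the rule too. Of the epithelial barcodes above the limit, 197 of 705 in calf 1, 23 of 147 in calf 2 and 207 of 509 in calf 3 passed every other limit of the rule, or 27.9% (95% Clopper-Pearson interval 24.7 to 31.4), 15.6% (10.2 to 22.5) and 40.7% (36.4 to 45.1). The authors treated barcodes above this limit as potential doublets. The medians of those that passed were 29084, 28668 and 26535 UMIs and 4482, 4378 and 4440 genes, and the rule is passed more easily at more UMIs, so their shares cannot be set against those of barcodes under the limit. With the limit of 4000 genes dropped, the mean share went from 10.8% to 11.8% (SD 10.1, n = 3).

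Kept barcodes of other cell types also had UMIs of at least 6 of the 8 replication genes, which is a count above 0 and no comparison with a background. Pooled over the calves, 10 of 344 leukocyte barcodes (2.91%), 16 of 787 endothelial barcodes (2.03%) and 4 of 366 fibroblast barcodes (1.09%) did so. Calf 3 gave 9, 13 and 3 of them, and calf 1 gave 0 of 5 leukocyte and 0 of 7 fibroblast barcodes. The part of doublets with epithelial cells was not tested.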

How the results depend on the processing

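Against resting cells, where 2134 genes were called higher and 2413 lower, DESeq2 called 1397 and 1135, and leaving out a calf gave 1378 to 2204 higher and 1213 to 2041 lower genes, with the lowest counts without calf 3. Against mitotic cells (1611 higher, 1315 lower), DESeq2 called 663 and 505, and leaving out a calf gave 796 to 1761 and 689 to 1439, with the lowest counts without calf 1. Without the replicate block, that is without the pairing of sums from the same calf, 457 higher and 70 lower genes were called against resting cells and 37 and 169 against mitotic cells. The cause of these differences was not tested. With mitotic cells of 6 or more replication genes left out, which was chosen after seeing the data, 5 named genes that had been called lower gave differences above 0, namely DCK 0.82, DNA2 0.38, EZH2 0.20, RNASEH2A 0.13 and DUT 0.036, and of these only DCK passed the threshold in edgeR. Without the limit of 4000 genes, also chosen after the data were seen, AREG gave -0.13 against mitotic cells in place of 0.35, and was not called. No gene called in both the reported fit and an alternative changed direction, except 1 with all resting cells and 1 with the mitotic cells just named. In cells chosen by at least 5 of the other 7 genes, the log2 ratio to resting cells was 3.97 for MCM3 and 2.98 for PCNA. The mean share of replicating cells (10.8%) ranged from 4.95%, with cells thinned to 5000 UMIs, to 13.7%, with 5 of 8 genes, and from 5.60% to 15.4% when a calf was left out. The SD between calves of 9.87 is too large for these moves to be judged by it. The share of promoters with given letters was not run, because promoter sequences were not used here. With 3 animals, and with 150 members in calf 2, low genes such as SAMHD1 were measured on few counts.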

Other observations

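The genes TXNIP, BTG1, HBP1, YPEL3 and CCNG2 were lower in replicating than in resting cells of each calf. They and KRT8 were chosen after their values were seen, so they do not represent any gene list, also where they belong to one. TXNIP, an inhibitor of thioredoxin, was at 630.3, 568 and 726 CPM in replicating cells of calves 1, 2 and 3 and at 1202, 1321 and 1714 in resting cells (log2 difference -1.13, SE 0.09, adjusted p = 5.68e-07). BTG1, an antiproliferative gene, was at 378, 410.3 and 326 CPM against 636, 907 and 769 (-1.04). HBP1, a repressor of cell cycle genes, was at 18.5, 41.0 and 23.3 CPM against 41.9, 71.2 and 49.6 (-1.05), and YPEL3 at 24.4, 37.1 and 10.8 against 50.3, 92.8 and 31.1 (-1.27). The sums of the classes overlapped between calves for YPEL3 and did not overlap for TXNIP, BTG1 or HBP1. CCNG2, an atypical cyclin of arrested cells, gave -2.39 (adjusted p = 7.14e-04) on few counts, with at most 0.511 CPM in replicating and at most 2.68 CPM in resting cells.

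Among the markers of simple epithelium, KRT8 was at 18.6, 11.6 and 9.46 CPM in replicating cells against 40.6, 24.9 and 19.0 in resting cells (-1.08, SE 0.11, adjusted p = 9.67e-06). It had the lowest difference of the 10 epithelial marker genes outside the rule, of which 7 were called lower and none higher.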
